A study of Mus musculus with 24 samples.

Results

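The genes described here were chosen by symbol from the count table: the cytokine genes Il1a, Il1b, Tnf, Il18, Il33 and Tgfb1, the cytokine receptor gene Il10ra, the inflammasome genes Casp1 and Pycard, and Nfkbia, which encodes an inhibitor of NF-kB. They are 10 of the 33000 genes in the table, and all 10 had at least 1 count. The samples were frontal cortex RNA of 3 wild-type (WT) C57BL/6 mice and of 3 GFAP-IL6 mice homozygous for their transgene, at an age of 3 months. In the GFAP-IL6 line a transgene under the GFAP promoter, which is active in astrocytes, produces the cytokine IL-6, and the WT mice carry no transgene. The RNA is from whole tissue, so more cells of a type and more RNA per cell cannot be told apart in any value below.

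RNA of each mouse was profiled in 4 libraries by 3'Pool-seq, which sequences the 3' end of each transcript. Tagmentation used 2 ng or 1 ng of amplified cDNA, each in a set A and a set B, and the labels do not state how the sets differ. Counts of the 4 libraries were summed per mouse for the main comparison, so n = 3 mice per genotype. Levels are CPM, which relate a gene's counts to the total of the mouse after scaling by TMM, a normalization that assumes most genes do not change.

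IL-1 family cytokines such as IL-1alpha, IL-1beta, IL-18 and IL-33 alert neighbouring cells to damage or infection. IL-1beta and IL-18 are made as inactive precursors, and caspase-1 cleaves them after it has been recruited to an inflammasome by ASC, the adaptor that Pycard encodes. NF-kB is the transcription factor that induces many cytokine genes, and its target Nfkbia encodes IkB-alpha, which holds NF-kB in the cytoplasm and so limits its own signal. In the brain, microglia are the main source of IL-1 and of inflammasome components, while IL-33 is stored in the nuclei of astrocytes and oligodendrocytes.

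The windows around the transcription start of Nfkbia, Tnf and Pycard are shown as examples of a classical NF-kB target, a cytokine gene that was barely counted, and the gene with the clearest difference. Each runs from 250 bases before the start to 50 bases after it, 5′ to 3′ on the strand of the gene, from RefSeq on GRCm38.p6. Capitals mark matches on either strand to a loose NF-kB motif, GGG and CC with any 5 bases between them.
Nfkbia, chr12:55492598-55492897, minus strand: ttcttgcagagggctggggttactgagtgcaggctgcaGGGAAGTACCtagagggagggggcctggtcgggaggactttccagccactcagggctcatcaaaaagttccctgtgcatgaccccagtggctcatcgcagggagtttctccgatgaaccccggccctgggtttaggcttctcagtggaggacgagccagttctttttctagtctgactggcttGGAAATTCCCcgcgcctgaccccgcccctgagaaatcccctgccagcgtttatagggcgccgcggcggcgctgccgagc
Tnf, chr17:35201958-35202257, minus strand: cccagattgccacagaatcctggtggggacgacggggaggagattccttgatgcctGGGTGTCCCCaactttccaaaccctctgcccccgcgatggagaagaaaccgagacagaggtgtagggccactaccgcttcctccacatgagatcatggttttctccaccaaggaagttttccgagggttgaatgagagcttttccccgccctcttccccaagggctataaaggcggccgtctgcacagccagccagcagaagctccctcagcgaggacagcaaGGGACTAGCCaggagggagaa
Pycard, chr7:127993818-127994117, minus strand: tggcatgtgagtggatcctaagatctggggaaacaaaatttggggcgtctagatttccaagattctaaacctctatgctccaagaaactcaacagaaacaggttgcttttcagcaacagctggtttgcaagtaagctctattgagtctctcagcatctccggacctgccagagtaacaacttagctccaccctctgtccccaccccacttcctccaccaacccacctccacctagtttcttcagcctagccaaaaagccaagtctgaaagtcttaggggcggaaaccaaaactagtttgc
The Nfkbia window held 2 matches, beginning 212 and 29 bases before the start. The match at 29 bases also fitted a narrower motif, GGG and TTTCC with any 2 bases between them, every match of which is a match of the loose one too. The Tnf window held 2 loose matches, at 194 bases before and 29 bases after the start, and the Pycard window held none.

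A RefSeq window was at hand for 9 of the 10 genes, all but Il10ra. The loose motif was in the windows of 4 of the 9, namely Tnf, Tgfb1, Casp1 and Nfkbia, and in 50.8% of all 32851 promoter windows of this length. The narrower motif was in 1.63% of all windows and, among the 9, in that of Nfkbia alone. TTCNNNGAA, the palindromic motif of STAT factors, through which IL-6 signals, was in 8.3% of all windows and in 0 of the 9. These are matches of letters only and say nothing of binding in this tissue.

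Il6 had 5, 3 and 0 counts in the WT mice and 30, 33 and 163 in the GFAP-IL6 mice, in the order of their labels. Gfap, which marks reactive astrocytes, was at 19.97 ± 3.78 CPM in WT and 110 ± 33.4 CPM in GFAP-IL6 mice (SD, n = 3). Both were higher in every mouse labelled GFAP-IL6, although counts do not separate transgene from endogenous Il6. Total counts ranged from 7852743 to 37582644 per mouse and from 1524165 to 12256374 per library. WT mouse 3, the least deeply sequenced, stood apart in choroid plexus transcripts, with Ttr, the transthyretin gene, at 4038 CPM against 74.6 to 743 CPM in the other mice. Fits without this mouse are given on their own below for Pycard and Nfkbia only. For other genes its weight is not shown singly.

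Of the 10 genes, 8 had enough counts to be tested between genotypes, and 1 of them, Pycard, passed at an adjusted p under 0.05 (edgeR quasi-likelihood test, Benjamini-Hochberg over 14621 genes). Among all genes tested, 1.74% passed as higher and 0.0547% as lower in GFAP-IL6 mice, or 255 and 8 genes, against 325 and 45 by limma-voom and 409 and 53 without the count filter. All 8 had a positive log2 fold change in the summed libraries, as had 48.1% of all genes, and for 7 of the 8, all but Il33, every GFAP-IL6 mouse lay above every WT mouse. Such separation was found for 8.43% of all genes, and the reverse for 5.93%. The exact permutation test (two-sided) gave p = 0.1 for each of these 7 genes, the smallest p that 3 mice against 3 allow. Tnf and Tgfb1 were dropped by the filter on low counts, so the 8 are not all of the set and their common direction is given as a description.

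**Figure D1:**
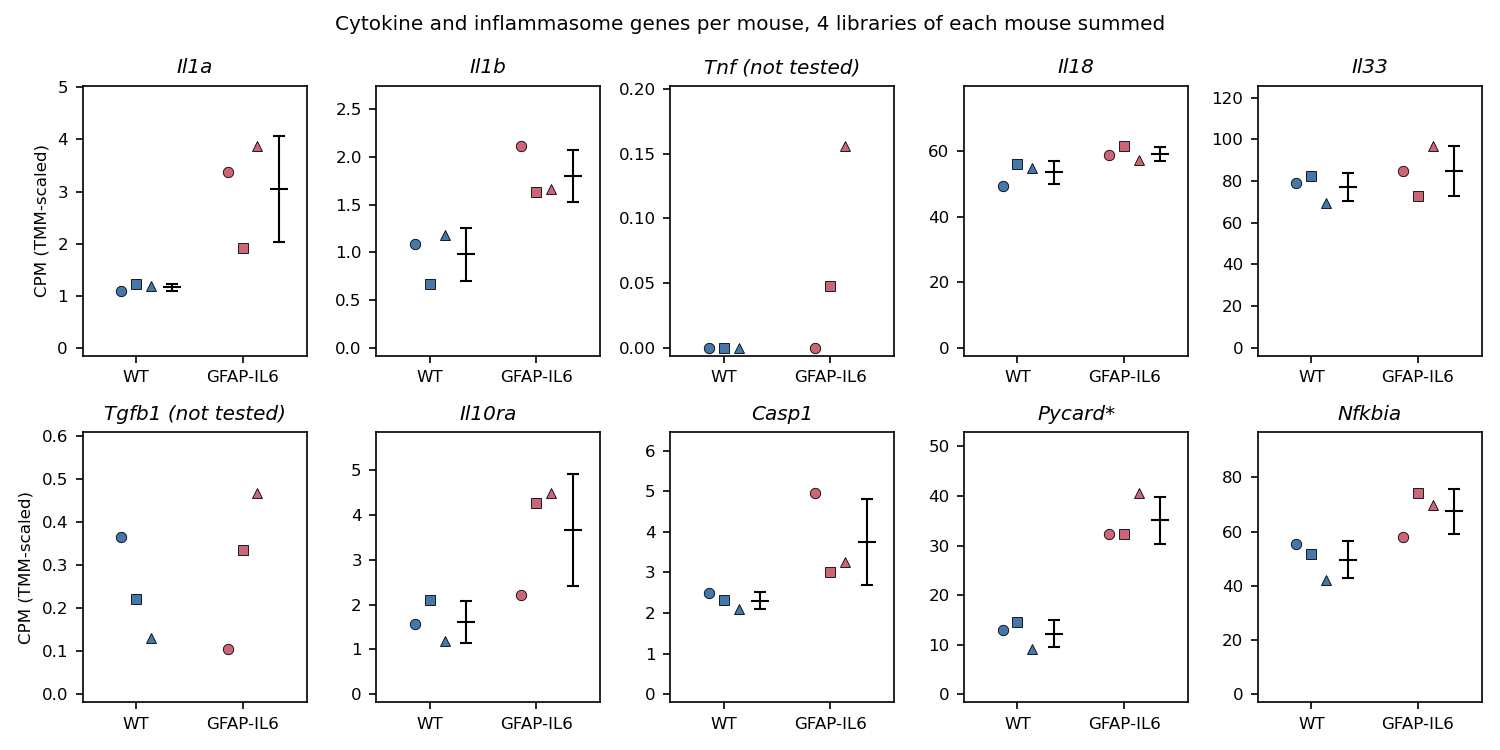
Level of each of the 10 genes in each mouse (y axis, TMM-scaled CPM from 0, own scale per panel) for WT (blue) and GFAP-IL6 (red) mice. Circle, square and triangle are mice 1, 2 and 3 of a genotype, the bar is the mean ± SD for tested genes, and the asterisk marks the gene that passed. Pycard lies between 32.3 and 40.6 CPM in GFAP-IL6 mice and between 9.19 and 14.6 CPM in WT mice, while the groups of Il33 overlap.

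Pycard (ENSMUSG00000030793.3, chr7:127989708-127993867 on mm10, minus strand, 3 exons) encodes ASC, the adaptor that links inflammasome sensors to caspase-1. Its level was 12.9, 14.6 and 9.19 CPM in the WT mice and 32.3, 32.3 and 40.6 CPM in the GFAP-IL6 mice. The lowest GFAP-IL6 mouse was thus above the highest WT mouse by more than the whole WT range. Pycard rose 2.81-fold (95% interval 2.25 to 3.52), a log2 fold change of 1.49 (SE 0.15) with an edgeR adjusted p of 3.4e-05. Behind these values were 70 to 263 counts in a WT mouse and 306 to 1565 in a GFAP-IL6 mouse. Without WT mouse 3, the log2 fold change was 1.37 with an edgeR adjusted p of 2.5e-05.

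Casp1 (ENSMUSG00000025888.5, chr9:5298517-5307265, plus strand) encodes caspase-1, the protease of the inflammasome. Its level was 2.50, 2.33 and 2.10 CPM in WT mice and 4.96, 3.02 and 3.27 CPM in GFAP-IL6 mice, without overlap. The log2 fold change of 0.63 (SE 0.27, 95% interval 0.05 to 1.22) did not pass, with an edgeR adjusted p of 0.501. GFAP-IL6 mouse 1 had the highest level, and the other two GFAP-IL6 mice were closer to WT than to that mouse. With 16 to 126 counts per mouse the interval allows a change between 1.04-fold and 2.32-fold.

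Other inflammasome genes, a list of 19 sensors, effectors and regulators, had 11 tested and 0 that passed in either direction by edgeR or by DESeq2, with 3 at an unadjusted p under 0.05, all higher. Their median log2 fold change was 0.21, against -0.01 over all genes tested. Gsdmd, whose product gasdermin D forms the pore through which IL-1beta leaves the cell, was at 2.34, 3.99 and 3.15 CPM in WT and 5.38, 5.47 and 6.95 CPM in GFAP-IL6 mice. Its groups did not overlap, and its log2 fold change of 0.93 (SE 0.24) had an edgeR adjusted p of 0.0707. Casp4, which encodes the caspase of the non-canonical inflammasome, had 8, 3 and 4 counts in WT and 6, 24 and 73 in GFAP-IL6 mice. In CPM, Casp4 was at 0.416, 0.166 and 0.525 in WT and 0.633, 1.15 and 1.89 in GFAP-IL6 mice, without overlap. Its fitted log2 fold change of 1.95 carried an interval of 0.78 to 3.11 and an edgeR adjusted p of 0.117. Nlrp3, the sensor that ASC most often serves in myeloid cells, had 3 to 28 counts per mouse and was not tested.

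Il1a (ENSMUSG00000027399.1, chr2:129299610-129309972, minus strand) encodes IL-1alpha, which is active without cleavage by caspase-1. It was at 1.09, 1.22 and 1.18 CPM in WT mice and 3.38, 1.92 and 3.87 CPM in GFAP-IL6 mice, without overlap. The log2 difference was 1.40 (SE 0.34, 95% interval 0.67 to 2.12) and just missed the threshold, with an edgeR adjusted p of 0.0538. The WT mice had 21, 22 and 9 counts. Leaving out GFAP-IL6 mouse 2, the lowest of its group, brought the edgeR adjusted p to 0.0253. Such an omission by itself favours a larger difference, and Il1a passed with no other mouse left out. Over 16 alternative fits the log2 fold change was 1.14 to 1.65, and the adjusted p, by the test of each fit, 0.00334 to 0.559.

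Il1b (ENSMUSG00000027398.11, chr2:129364570-129371139, minus strand), which encodes the IL-1beta precursor, was at 1.09, 0.665 and 1.18 CPM in WT and 2.11, 1.63 and 1.66 CPM in GFAP-IL6 mice. The groups did not overlap, but the log2 fold change of 0.89 (SE 0.37, 95% interval 0.09 to 1.69) had an edgeR adjusted p of 0.487. A run of 25 nt of its exons is shared with the antisense gene Il1bos, outside the last exon, where 3' reads fall.

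Il18 (ENSMUSG00000039217.10, chr9:50554827-50581840, plus strand) encodes the IL-18 precursor, the other main substrate of caspase-1. Its level was 49.5, 56.2 and 54.9 CPM in WT and 58.9, 61.5 and 57.4 CPM in GFAP-IL6 mice. The GFAP-IL6 mice were narrowly above the WT mice, and the change of 1.11-fold had a 95% interval of 0.968 to 1.27 and an edgeR adjusted p of 0.732. Counts of 418 to 2212 per mouse make this interval narrow, and its upper bound is below the 2.25 at which the interval of Pycard begins.

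Il33 (ENSMUSG00000024810.14, chr19:29925114-29960718, plus strand), the gene of the alarmin IL-33, was at 79.2, 82.5 and 69.7 CPM in WT and 84.9, 72.7 and 96.6 CPM in GFAP-IL6 mice. The groups overlapped, since GFAP-IL6 mouse 2 lay below 2 of the WT mice. The fold was 1.10 (95% interval 0.934 to 1.29), with an edgeR adjusted p of 0.831. Changes of 2-fold or more in Il18 or Il33 lie outside these intervals.

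Of 15 other ligands, receptors and inhibitors of the IL-1 family, 4 were tested and 0 passed by edgeR or by DESeq2, with 3 at an unadjusted p under 0.05, all higher. Il1r1, the signalling receptor for both forms of IL-1, had 29, 24 and 3 counts in WT and 21, 68 and 106 in GFAP-IL6 mice. In CPM, Il1r1 was at 1.51, 1.33 and 0.394 in WT and 2.21, 3.26 and 2.75 in GFAP-IL6 mice, without overlap. Its log2 fold change was 1.23 (SE 0.36) with an edgeR adjusted p of 0.153. Il1rap, the co-receptor shared by the IL-1 and IL-33 receptors, was at 21.5 ± 1.56 and 26.4 ± 1.28 CPM (SD, n = 3) with a log2 fold change of 0.29 and an edgeR adjusted p of 0.369. Il18bp, the secreted IL-18 antagonist, had a log2 fold change of 0.69 (95% interval -0.08 to 1.46). Il1rn, the IL-1 receptor antagonist, had 0 counts in each WT mouse and 2, 2 and 4 in the GFAP-IL6 mice, too few to test. Il1rl1, the receptor of IL-33, and Il18r1, the receptor of IL-18, had at most 1 count in any mouse.

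Nfkbia (ENSMUSG00000021025.7, chr12:55489410-55492647, minus strand), the gene of the feedback inhibitor IkB-alpha, was at 55.3, 51.6 and 42.0 CPM in WT and 58.1, 74.3 and 69.9 CPM in GFAP-IL6 mice. The groups were separated by a narrow gap between WT mouse 1 and GFAP-IL6 mouse 1. The fold of 1.35 (95% interval 1.14 to 1.61) had an edgeR adjusted p of 0.0864, and DESeq2 gave an adjusted p of 0.0446 for the same data. Leaving out GFAP-IL6 mouse 1 gave a log2 fold change of 0.52 and an edgeR adjusted p of 0.028, while leaving out WT mouse 3, the lowest of its group, gave 0.35 and 0.2.

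The 27 other genes of the NF-kB pathway were better counted, with 26 tested, yet 0 passed by edgeR or by DESeq2, and 4 had an unadjusted p under 0.05, all higher. Their median log2 fold change was 0.19. Rela, which encodes the p65 subunit of NF-kB, was at 20.3 ± 0.922 CPM in WT and 22.4 ± 2.66 CPM in GFAP-IL6 mice (SD, n = 3), a log2 fold change of 0.15 (95% interval -0.10 to 0.40). Nfkb1 and Nfkb2, the genes of the p105 and p100 precursors, had log2 fold changes of 0.33 (95% interval -0.15 to 0.81) and 0.59 (95% interval -0.29 to 1.46). Tnfaip3, the gene of the inhibitor A20 and an NF-kB target like Nfkbia, was at 1.80 ± 0.522 and 1.76 ± 0.219 CPM, with an interval of -0.74 to 0.73 on the log2 scale.

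Tnf (ENSMUSG00000024401.12, chr17:35199381-35202007, minus strand) had 0 counts in every WT mouse and 0, 1 and 6 counts in GFAP-IL6 mice 1, 2 and 3. The 6 counts fell in the most deeply sequenced mouse. In the WT mice a count of 0 allows up to 3 counts per mouse, or 0.156, 0.166 and 0.394 CPM. GFAP-IL6 mouse 3, the highest, was at 0.156 CPM, about the lowest of these limits. Tnf was not tested, and neither a difference nor its absence can be read from these counts.

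The genes of the TNF receptors had enough counts to be tested. Tnfrsf1b, which encodes TNFR2, had 19, 22 and 4 counts in WT and 16, 45 and 103 in GFAP-IL6 mice. In CPM, Tnfrsf1b was at 0.989, 1.22 and 0.525 in WT and 1.69, 2.16 and 2.67 in GFAP-IL6 mice, without overlap. Its fold was 2.30 (95% interval 1.33 to 3.95) with an edgeR adjusted p of 0.179. Tnfrsf1a, which encodes TNFR1, was at 10.04, 9.36 and 10.1 CPM in WT and 8.65, 15.1 and 21.5 CPM in GFAP-IL6 mice, so that GFAP-IL6 mouse 1 was below every WT mouse. Its edgeR adjusted p was 0.27, and 0.68 was its log2 fold change.

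A list of 12 other genes that act in the TNF pathway or are named after it had 9 tested and 1 that passed. This was Tnfaip8l2, which is on the list by its name. It encodes TIPE2, a negative regulator of immune receptor signalling in myeloid and lymphoid cells. Tnfaip8l2 was at 4.84, 4.54 and 3.54 CPM in WT and 6.64, 12.2 and 13.8 CPM in GFAP-IL6 mice, without overlap. It rose 2.54-fold (95% interval 1.80 to 3.59) with an edgeR adjusted p of 0.00478. In the edgeR fit with the count filter, and with DESeq2, it was the one gene of the 126 other pathway genes, 77 of them tested, to pass in either direction. As many as 8 of these genes passed as higher and 0 as lower under other settings, with 5 by limma-voom and 8 without the count filter. Of the 77, 17 had an unadjusted p under 0.05, against 8.75% of all genes tested.

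Tgfb1 (ENSMUSG00000002603.13, chr7:25687002-25705077, plus strand), the gene of TGF-beta 1, which restrains microglial activation, had 7, 4 and 1 counts in WT and 1, 7 and 18 in GFAP-IL6 mice. The groups overlapped at 0.131 to 0.364 CPM and 0.106 to 0.467 CPM, and the gene was not tested. The related ligand genes were well counted. Tgfb2 was at 14.8 ± 2.31 CPM in WT and 14.5 ± 2.72 CPM in GFAP-IL6 mice (SD, n = 3), with a 95% interval of -0.34 to 0.35 on the log2 scale. Tgfb3 was at 8.39 ± 1.04 and 9.23 ± 0.415 CPM, with an interval of -0.20 to 0.45. Of the receptor genes, Tgfbr1 had a log2 fold change of 0.05 (95% interval -0.26 to 0.36) and Tgfbr2 one of 0.59 (95% interval 0.11 to 1.08) with an edgeR adjusted p of 0.383. Of 20 other TGF-beta pathway genes, 19 were tested and 0 passed by edgeR or by DESeq2, with 1 at an unadjusted p under 0.05, and their median log2 fold change was 0.003.

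Il10ra (ENSMUSG00000032089.14, chr9:45253837-45269149, minus strand) encodes the ligand-binding chain of the receptor for the anti-inflammatory cytokine IL-10. It was at 1.56, 2.11 and 1.18 CPM in WT and 2.21, 4.27 and 4.49 CPM in GFAP-IL6 mice. GFAP-IL6 mouse 1 was only just above WT mouse 2. The log2 fold change of 1.18 (SE 0.32, 95% interval 0.51 to 1.85) had an edgeR adjusted p of 0.0921. Without GFAP-IL6 mouse 1, the lowest of its group, it was 1.38 with an edgeR adjusted p of 0.0255. Such an omission by itself favours a larger difference, and Il10ra passed with no other mouse left out. Across 17 alternative fits the log2 fold change was 0.79 to 1.55, with an adjusted p, by the test of each fit, of 0.00548 to 0.566. Il10rb, the second chain, which other receptors share, was at 11.999 ± 2.96 and 15.1 ± 2.59 CPM (SD, n = 3) with a log2 fold change of 0.38 and an edgeR adjusted p of 0.565. Il10 had 1 count in each of 2 mice, 1 per genotype. Of the 9 other ligands and receptors of the IL-10 family, Il10rb was the one that could be tested, and its unadjusted p was under 0.05.

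Other cytokines, a list of 24, had 7 tested and 0 that passed by edgeR or by DESeq2, with 1 at an unadjusted p under 0.05. Over all lists 14 genes had 0 counts in every mouse. They included Il4, Il17a, Ifng, Ifnb1 and Csf3, which encode signals of T cells, antiviral responses and granulocyte production.

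**Figure D2:**
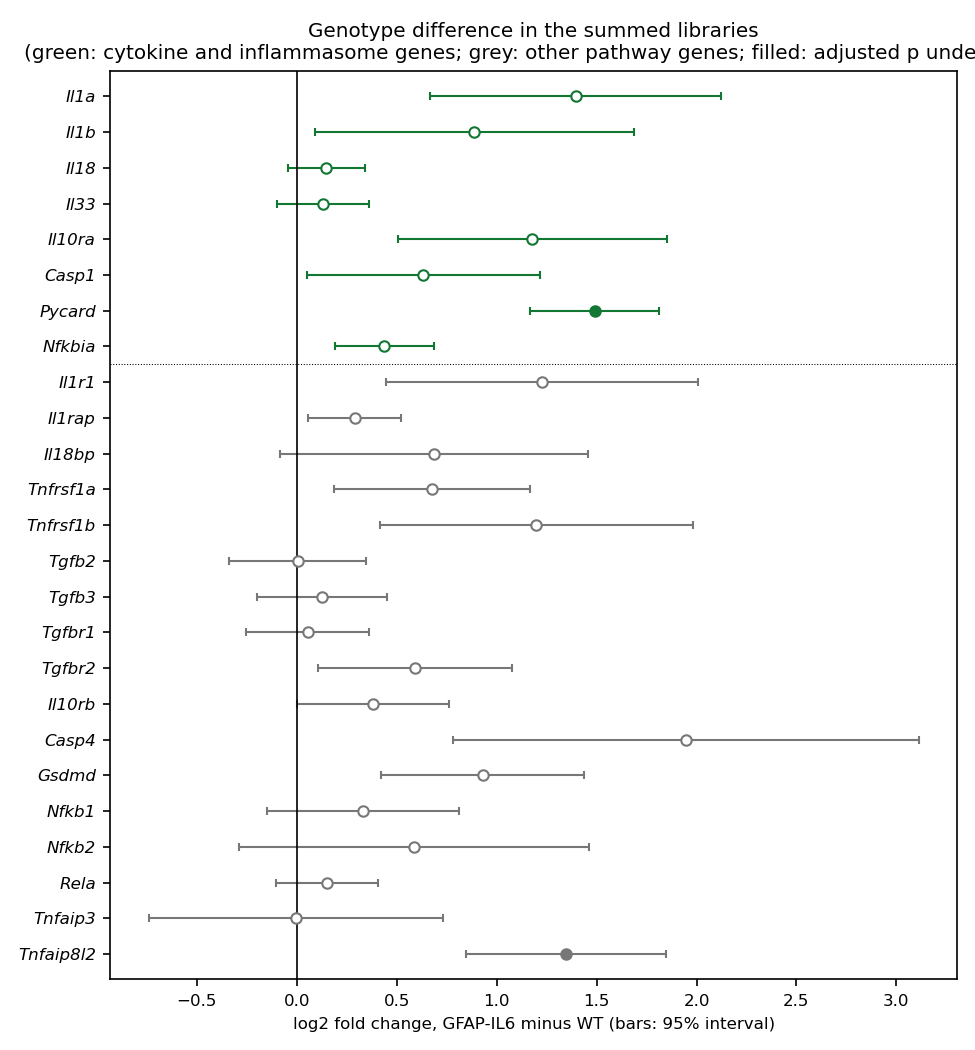
Log2 fold change between GFAP-IL6 and WT mice (x axis) with its 95% interval for the 8 tested cytokine and inflammasome genes (green) and 17 other pathway genes named in the text (grey). Filled points passed at an adjusted p under 0.05. Pycard at 1.49 and Tnfaip8l2 at 1.35 are the filled ones, and Il18 and Il33 have the narrowest intervals of all genes shown.

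Most microglial markers were higher in GFAP-IL6 mice. Of 11 markers 8 passed as higher by edgeR, and their summed level was 303, 338 and 306 CPM in WT and 456, 515 and 597 CPM in GFAP-IL6 mice, a ratio of means of 1.66. Itgam was at 6.03 and 18.1 CPM on average and P2ry12, a marker of resting microglia, at 55.8 and 55.1 CPM. Their part in the rise of Pycard was not tested, but Pycard could be set against them mouse by mouse. It amounted to 4.26, 4.31 and 3.003% of the summed marker level in WT and to 7.08, 6.27 and 6.80% in GFAP-IL6 mice, again without overlap. This share was 1.74 times as high in GFAP-IL6 mice (two-sided exact permutation p = 0.1, which no 3 against 3 comparison can go below).

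On the same relative scale, which was chosen after the values were seen, the other genes fell on both sides. Il1a amounted to 0.369 ± 0.0149% of the summed marker level in WT and 0.587 ± 0.191% in GFAP-IL6 mice (SD, n = 3), and the groups overlapped. Il10ra, Il1b and Casp1 overlapped as well, with ratios of 1.36, 1.12 and 1.01. Il18 was at 16.96 ± 0.850% in WT and 11.5 ± 1.69% in GFAP-IL6 mice and Il33 at 24.4 ± 1.68% and 16.3 ± 2.26%. Both were lower in every GFAP-IL6 mouse (exact permutation test, two-sided, p = 0.1 for each). The summed marker level was itself 1.66 times as high in GFAP-IL6 mice, so a gene with unchanged CPM falls on this scale. The shares of Il18 and Il33 thus say nothing of a fall in their levels. The ratio of Nfkbia was 0.823, with overlap. Among the genes set against the markers, Pycard alone was higher in every GFAP-IL6 mouse. In CPM, the fitted folds of the single markers ran from 0.988 for P2ry12 to 3.03 for Itgam, a range that holds the 2.81 of Pycard. A rise beyond that of the marker sum was therefore not particular to Pycard.

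**Figure D3:**
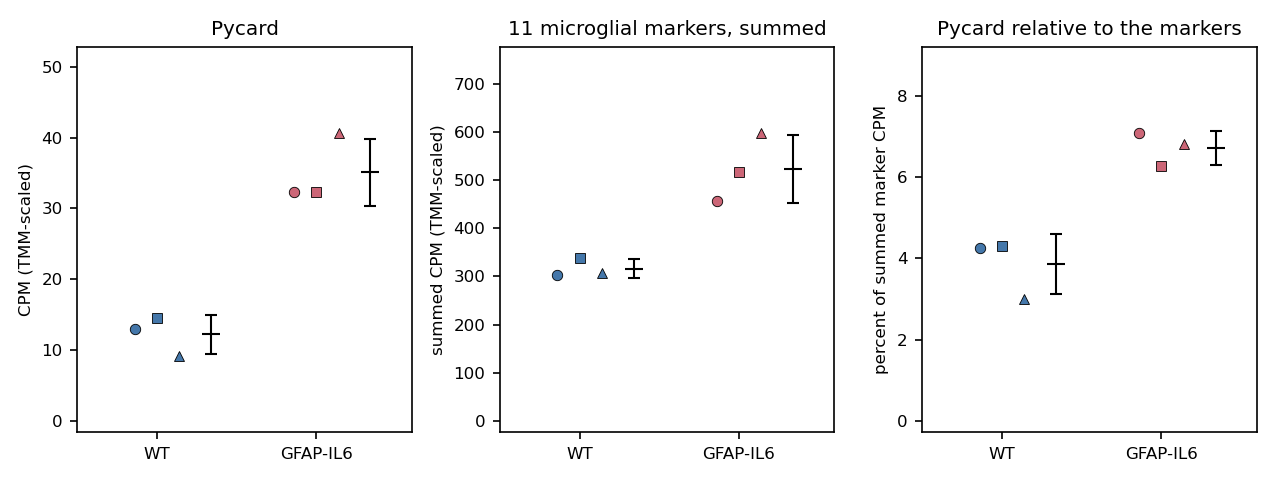
Pycard level (left, TMM-scaled CPM), the summed level of 11 microglial markers (middle, TMM-scaled CPM) and Pycard as a percent of that sum (right) in each mouse of both genotypes. Circle, square and triangle are mice 1, 2 and 3, and the bar is the mean ± SD. The 3 panels show the GFAP-IL6 mice above the WT mice, with the ratio of means at 1.66 for the markers and 1.74 for the percent.

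Many markers of blood-borne cells had too few counts to test, and none of those tested passed. The 4 monocyte markers summed to 0.262 to 0.720 CPM in WT and 0.949 to 2.23 CPM in GFAP-IL6 mice, without overlap. Their ratio of means, 3.49, was the highest of the marker lists but rests on few counts. With 1 of them tested and 0 that passed, the test covers little of this list. The neutrophil marker Ly6g had 0 counts in every mouse, and the 8 neutrophil markers summed to 0.525 to 3.88 CPM and 2.004 to 5.97 CPM, with 0 of 2 tested that passed. T cell markers summed to 1.84 to 4.71 CPM and 3.71 to 4.85 CPM, with 0 of 2 that passed, and B cell markers to 54.1 to 61.6 CPM and 58.4 to 72.6 CPM, with 0 of 2. No border macrophage marker of 6 passed, and their sums overlapped at 11.02 to 13.6 CPM and 10.02 to 14.01 CPM. Of the resident types, 0 of 8 astrocyte, 0 of 8 oligodendrocyte, 0 of 8 neuron, 0 of 4 choroid plexus and 0 of 5 red blood cell markers passed, and 1 of 6 endothelial markers, Flt1, passed as higher. For these lists DESeq2 also called Flt1 alone. Of the 52 markers tested outside the microglial list, 7 were higher and 2 lower at an unadjusted p under 0.05, a threshold that 8.75% of all genes tested passed.

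The 4 library sets show how far one library per mouse carries these genes. Pycard passed as higher and showed no overlap in each of the 4 sets, with log2 fold changes of 1.49 and 1.28 for the 2 ng libraries of sets A and B, and of 1.66 and 1.504 for those with 1 ng. Nfkbia passed in 1 ng set A (log2 fold change 0.52, edgeR adjusted p = 0.0426) and in none of the other three, and that call was lost with the replicate block (edgeR adjusted p = 0.0617) and with DESeq2 (adjusted p = 0.0805). In the 4 sets, 1.03 to 1.1% of all genes tested passed in either direction. Because the 6 mice recur in each set, the sets repeat the measurement and not the animals.

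The genes with few counts moved most between sets. Casp1 ranged from 0.28 to 1.36 and Il10ra from 0.77 to 1.61 on the log2 fold change scale, and neither passed in any set. Il18 ranged from -0.0007 to 0.26 and Il33 from 0.03 to 0.21. Il1a and Il1b each had enough counts to be tested in 1 set only, and Tnf and Tgfb1 in none. Per library, Pycard had 12 to 563 counts and Casp1 2 to 39, Il1b was at 0 in 2 of the 24 libraries, Tgfb1 in 9 and Tnf in 21.

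**Figure D4:**
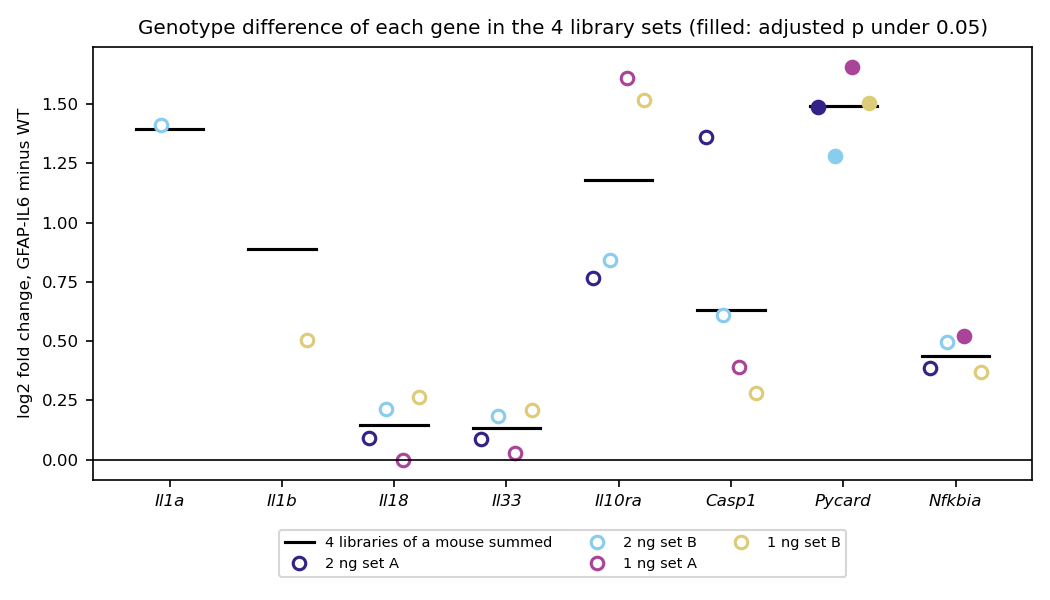
Log2 fold change between GFAP-IL6 and WT mice (y axis) of the 8 tested genes in each of the 4 library sets (circles, coloured by set, filled where the adjusted p was under 0.05) and in the summed libraries (black line). Sets in which a gene had too few counts have no circle. The 4 circles of Pycard are filled and lie between 1.28 and 1.66, while those of Il10ra spread from 0.77 to 1.61.

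Whether the amount of cDNA changed these genes was tested within mouse. Il18 was the one of the 8 that passed: it was higher at 2 ng in 6 of 6 mice, at 60.5 ± 4.61 CPM with 2 ng and 53.7 ± 3.86 CPM with 1 ng (SD, n = 6). In WT mice it was at 54.5, 59.5 and 57.7 CPM with 2 ng and 46.2, 54.8 and 53.9 CPM with 1 ng. In GFAP-IL6 mice it was at 65.1, 66.8 and 59.3 CPM with 2 ng and 54.9, 57.0 and 55.7 CPM with 1 ng. The log2 difference of 0.15 (SE 0.047, edgeR adjusted p = 0.0075) is as large as that between genotypes, and 33.3% of the 13389 genes tested passed in this comparison. The call was lost with DESeq2 (adjusted p = 0.054) and without the mouse as a block (edgeR adjusted p = 0.127).

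Il33 was also higher at 2 ng in 6 of 6 mice, by a log2 difference of 0.05 that did not pass (edgeR adjusted p = 0.363), and Nfkbia in 1 of 6. Pycard was higher at 2 ng in 5 of 6 mice, by a log2 difference of 0.11 (95% interval -0.03 to 0.25), which did not pass. Between sets B and A none of the 8 genes passed by edgeR, at adjusted p-values of 0.453 or more, 0 of the 8 had an unadjusted p under 0.05, and 23.3% of all genes tested passed. The genotype difference did not pass a test of change with cDNA amount for any gene, with 0 of 13961 called by edgeR and 0 by DESeq2, and 3.85% of genes at an unadjusted p under 0.05, none of the 8 among them. For Pycard the difference between amounts was -0.21 (95% interval -0.53 to 0.11) on the log2 scale.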

How the data were processed

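Frontal cortex RNA of 3 WT and 3 GFAP-IL6 mice was measured in 24 3'Pool-seq libraries. The authors trimmed polyA stretches, aligned reads to mm10 with STAR 2.4 and counted unique alignments on GENCODE vM6 genes with featureCounts 1.6.3, and they deposited raw counts with no normalization. Reads carry no molecular identifiers, so the floor of 3 counts covers counting error only.

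Groups were taken from the labels. The 4 libraries of a mouse were summed and genotypes compared with edgeR 4.0.16 in R 4.3.3 (quasi-likelihood test, TMM, filterByExpr, Benjamini-Hochberg over all genes, adjusted p under 0.05). The study used DESeq2, which was an alternative here (DESeq2 1.42.0), as were limma-voom 3.58.1, other filters, scalings and thresholds, library subsets and leaving out each mouse. Standard errors were derived from the F statistic. Effects of cDNA amount and set had the mouse as a block.

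Named were the 10 genes, 21 partner genes whatever their values, up to 3 further genes per pathway list that passed, and Il6 and Gfap as a check. Genes that describe a mouse or a marker list, such as Ttr, Itgam, P2ry12, Flt1 and cytokines at 0, were named after their values were seen. The genes and lists were chosen with earlier results of these data known. The narrower NF-kB motif and the scale relative to microglial markers were added later. One microglial marker of the original list is not reported here and is left out of the marker sums, and the shares relative to the markers apply to the 11 summed. Positions are from GENCODE vM21 on mm10. The last 300 nt of each gene had no near-identical copy among other genes (97% over 100 nt, minimap2). The tests were checked on simulated data.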

Additional observations from a re-analysis of the deposited data

How the results depend on the processing

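Pycard passed under all 18 refits, with log2 fold changes of 1.37 to 1.63 and adjusted p-values up to 0.000257. The number of the 10 genes called higher, 1 in the summed libraries, was 2 with DESeq2 (Pycard and Nfkbia), 2 with library totals in place of TMM (Pycard and Il1a), 3 with limma-voom (with Il10ra and Nfkbia), 4 without a filter on low counts, 4 at an adjusted p under 0.1, and 1 to 3 when 1 mouse was left out. All genes called numbered 263, 462 without the filter and 146 to 321 when 1 mouse was left out. The other pathway genes called higher, 1 in the summed libraries, were 2 with library totals, 2 in the 1 ng libraries, 3 at an adjusted p under 0.1, 5 with limma-voom, 8 without the filter and 1 to 4 when 1 mouse was left out. Gsdmd, Tnfrsf1a, Il1r1 and Casp4 were among those gained without the filter, and Tnfaip8l2 passed in all 18 refits. Leaving out GFAP-IL6 mouse 1 added Il10ra and Nfkbia, and leaving out GFAP-IL6 mouse 2 added Il1a. Il1b, Il18, Il33 and Casp1 passed under none of the alternatives of the genotype comparison in summed libraries.

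Relative to the summed microglial markers, a scale chosen after seeing the data, the log2 difference was 0.80 for Pycard and negative for Il18 (-0.56), Il33 (-0.58) and Nfkbia (-0.28). Since the marker sum was higher in GFAP-IL6 mice, a gene with unchanged CPM is negative on this scale. Of the partner genes, 4 with log2 fold changes of 0.13 or less and Nfkb2, at 0.59, changed sign. Tgfb2 was at -0.013 with DESeq2, -0.0022 with its size factors, -0.072 after down-sampling to equal totals, -0.16 in the 2 ng libraries, -0.21 in set A, -0.039 with the replicate block and -0.16 to 0.14 without 1 mouse. Tnfaip3 was at 0.0097 with at least 10 counts in every mouse, 0.27 after down-sampling, 0.027 with library totals, 0.17 in the 1 ng libraries, 0.065 in set B, and -0.19 to 0.18 without 1 mouse. Tgfbr1 was at -0.031 in the 1 ng libraries, -0.033 in set B and -0.061 to 0.20 without 1 mouse, Tgfb3 at -0.045 in the 2 ng libraries, and Nfkb2 at -0.10 after down-sampling. The change of the Nfkbia difference with cDNA amount was -0.0012 with DESeq2. The cause of these changes was not tested.

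With 2 ng against 1 ng, DESeq2 called 0 of the 10 genes and 2876 genes in all, and the fit without the mouse block 0 and 1714, against 1 and 4462. Between sets, the fit without the mouse block called 1015 genes, against 3169. In 1 ng set A, DESeq2 and the replicate block each called 1 of the 10 genes, against 2, and the call lost was that of Nfkbia. All genes called in 2 ng set A were 78 with DESeq2, against 125, and in 2 ng set B 83 with the replicate block, against 132. Same-numbered mice of the 2 genotypes did not deviate together (r of -0.05, -0.04 and -0.06 over genes), so no pairing by number was seen. This check rests on correlation over genes in few mice and cannot exclude a shared litter or handling. With the replicate block 1 of the 10 genes was called in the summed libraries, Pycard, and 210 genes passed as higher in place of 255.

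Depth limits the genes with few counts: Tnf and Tgfb1 could not be tested, and changes of Il1b and Casp1 between about no change and more than 2-fold lie within their intervals.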
